A study of Mus musculus with 6 samples.

Results

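The genes described here are 36 members of the ATF4 amino acid stress pathway, taken by symbol from a table of read counts for 49315 mouse gene IDs. All 36 were found in the table and all 36 passed the low-count filter. The libraries came from immortalized mouse keratinocytes (MK cells), an epithelial skin line, in 2 groups of 3 libraries. The 3A group was the line MK-546-ha3A (MK-/-:ha3), α3 integrin-null cells into which the human α3 subunit had been reintroduced. The Control group was its parent MK-546 (MK-/-), which has no α3. Cells of both groups carried the α3 deletion, received no treatment and grew on dishes coated with collagen, so the laminin-binding integrin α3β1 was the intended difference. Each group was 1 cell line, so α3 and the descent of the line cannot be told apart. The labels do not state whether the 3 libraries of a group are separate cultures; if they are not, the p-values reflect technical spread alone.

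ATF4 is the transcription factor of the integrated stress response. When amino acids run short, uncharged tRNA activates the kinase GCN2 (Eif2ak4), which phosphorylates the initiation factor eIF2; most translation slows while Atf4 mRNA is translated more. ATF4 then pairs with C/EBP family proteins and drives genes for amino acid synthesis, amino acid import, tRNA charging and feedback control. Because ATF4 is regulated mainly at translation, its mRNA count does not measure its protein, which was not analysed here.

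ATF4 and C/EBP proteins bind together to a composite element often written TGATGNAA, whose common form is TGATGCAA. These letters were searched on both strands in the 250 bases before the transcription starts of the RefSeq promoter table (GRCm38.p6), which held windows for 30 of the 36 members; Eif4ebp1, Slc7a5, Slc1a5, Wars, Nars and Cars had none. TGATGCAA, which is contained in TGATGNAA, was present in 6 of the 30 members (20%), against 248 of 27025 genes of all kinds with a window (0.918%). The looser TGATGNAA was present in 8 of the 30 members (26.7%), against 1056 of 27025 genes (3.91%). Many members were defined in the field by such elements, so the excess describes the list and is not a result of these libraries. Most members with a window held neither form. Of the 8 matches, 7 are shown to let the letters and their surroundings be compared, with the 8 matched letters in capitals, read 5′ to 3′ on the strand of the gene. Stretches of 30 bases are given where an annotated exon of some transcript overlaps them and of 60 bases elsewhere.
Nupr1: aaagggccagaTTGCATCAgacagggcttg
Chac1: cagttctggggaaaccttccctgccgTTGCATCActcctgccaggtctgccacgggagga
Vldlr: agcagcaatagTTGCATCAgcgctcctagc
Asns: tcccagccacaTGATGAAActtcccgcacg
Pycr1: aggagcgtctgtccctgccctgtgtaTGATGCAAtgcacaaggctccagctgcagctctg
Gars: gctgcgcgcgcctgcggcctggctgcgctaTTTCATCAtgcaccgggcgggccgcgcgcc
Tars: gggccaggagtcccgTTGCATCAgctggtt

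The stretches lie at chr7:126625562-126625591 on the minus strand for Nupr1, chr2:119351023-119351082 on the plus strand for Chac1, chr19:27216809-27216838 on the plus strand for Vldlr and chr6:7693214-7693243 on the minus strand for Asns. Those of Pycr1, Gars and Tars lie at chr11:120643818-120643877 (minus), chr6:55037941-55038000 (plus) and chr15:11399659-11399688 (minus). The match begins 110 bases upstream of the start in Nupr1, 193 in Chac1 and 103 in Pycr1. Of the 7 members that differed between the groups by the test described next, 1 higher and 5 lower had a window. Of these, Vldlr and Nupr1 held the letters, while the called member Eif4ebp1 could not be searched. Of the 24 members with a window that were not called, 6 held them, among them Asns, a classical ATF4 target. A match is a description of letters and not a binding site shown by experiment, and no match in this window says nothing about elements elsewhere.

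In 3A cells the mRNA of Atf4 itself was level with Control, while 3 transcription regulators of the response, Ddit3, Cebpb and Nupr1, fell to between about 0.25 and 0.36 of the Control level. The amino acid transporter genes Slc3a2 and Slc38a2 fell less, by 0.59 and 0.66 on the log2 scale, and the effector genes Eif4ebp1 and Vldlr rose 2.77-fold and 3.92-fold. None of the genes for amino acid and folate enzymes and none of the tRNA synthetase genes among the members passed the test. By edgeR's quasi-likelihood test at a Benjamini-Hochberg adjusted p under 0.05 over all 13704 tested genes, 2 of 36 members were higher and 5 lower in 3A. Over all tested genes 14.9% were called, 7.52% higher and 7.39% lower, so the members' share of 19.4% was near the background. At an unadjusted p under 0.05 edgeR had 3 members higher and 10 lower (34% of all tested genes in either direction), and DESeq2 called 3 and 8 (26% of all genes it tested). The median log2 fold change was 0.02 over the members and -0.02 over all tested genes. The libraries of the groups did not overlap for 5 members with 3A above (18.6% of all tested genes) and 8 members with 3A below (17.6% of all tested genes).

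**Figure D1:**
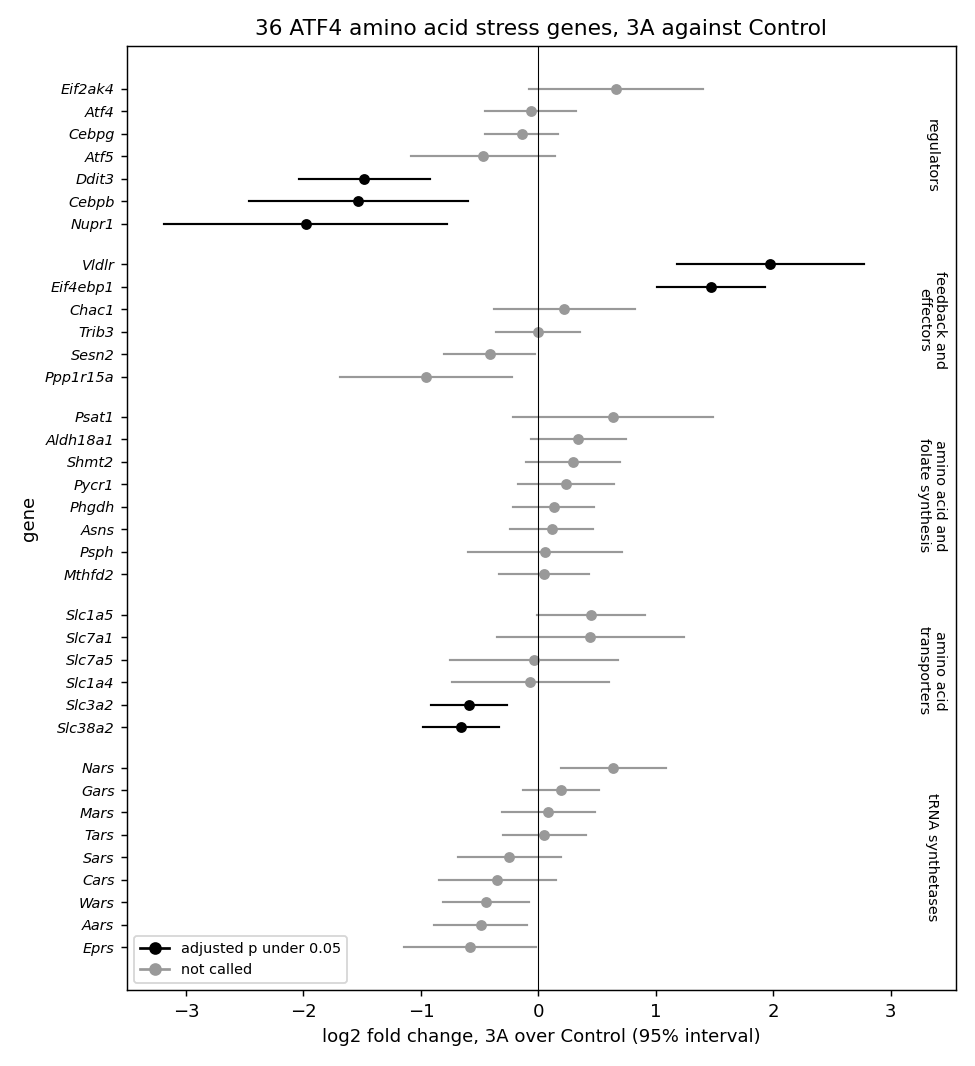
Log2 fold change of 3A over Control for the 36 genes, grouped by role, with the 95% interval of each gene alone; black marks genes with an adjusted p under 0.05. Ddit3, Cebpb and Nupr1 lie left of -1, Vldlr and Eif4ebp1 right of 1, and the 8 synthesis enzymes lie between 0.05 and 0.64.

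These calls depended on which libraries entered. Mouse Itga3, the deleted gene, had a log2 fold change of 0.81 (SE 0.198; adjusted p = 0.0362 by edgeR); both lines carry the deletion and the reintroduced subunit is human, so this value checks neither. Total counts were 34177002 to 36245240 in 3A and 25634204 to 30919348 in Control. Control 1 stood apart from its group: across genes its log2 CPM had r = 0.957 against Control 2 and r = 0.953 against Control 3, while r was 0.988 between Control 2 and Control 3 (genes are not independent replicates). 3A 1 stood apart from its group to a lesser degree, with r = 0.985 against 3A 2 and 0.982 against 3A 3, while r was 0.994 between 3A 2 and 3A 3. The chi-square per degree of freedom was 82.2 and 106 between 3A 1 and the other 3A libraries and 15.7 between those, and 262 and 311 between Control 1 and the other Control libraries and 18.2 between those. Against 3A 1, 2 and 3, Control 1 had lower values than against its own group (163, 99.5 and 119). Its r against 3A 1, 2 and 3 was 0.9458, 0.9554 and 0.9515, close to its r within Control. The share of counts from mitochondrially encoded mRNA was 1.58%, 1.23% and 1.30% in 3A 1, 2 and 3, and 1.16%, 4.16% and 4.69% in Control 1, 2 and 3, so Control 1 resembled 3A in this respect. Control 1 lay nearer to the 3A mean than to the mean of the other 2 Control libraries for 24 of 36 members (66.7%), and for 61.0% of all tested genes. Of 8 keratinocyte markers, 0 were higher and 2 lower in 3A by edgeR, DESeq2 and limma-voom. Over all tested genes edgeR called 14.9% and DESeq2 26%. Perp, a desmosome-associated gene, had 579 CPM in 3A and 998 CPM in Control (edgeR adjusted p = 0.0247), and Trp63, a transcription factor of basal keratinocytes, 91.1 CPM in 3A and 139 CPM in Control (edgeR adjusted p = 0.0491). The other 6 were not called; the log2 fold changes of Krt5, Krt14 and Cdh1 were -0.52, -0.32 and -0.08, and those of Itga6, Itgb4 and Sfn 0.20, 0.28 and 0.33. All 8 passed the filter, and their summed levels, mostly Krt5 and Krt14, were 7350 to 9117 CPM in 3A and 9828 to 11087 CPM in Control. The summed levels of 8 fibroblast, 7 melanocyte, 6 leukocyte and 4 endothelial markers were at most 3.40, 2.13, 14.6 and 0.946 CPM in 3A and at most 3.36, 3.95, 23.0 and 0.467 CPM in Control; Lum, Tyr and Dct were at 0 in every library. The part of the mitochondrial share, of Control 1, of 3A 1 or of these markers in the results was not tested. In bulk RNA, fewer cells expressing a gene and less RNA per cell cannot be told apart.

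The regulators form the first group. Levels are CPM, counts scaled to a common library size with TMM factors. Atf4 (chromosome 15, 80255184 to 80257541, plus strand, GRCm38) had 650.4, 645 and 629 CPM in 3A 1, 2 and 3, and 557, 722 and 737 CPM in Control 1, 2 and 3. The 3A values lie inside the Control range. The log2 fold change was -0.07 (SE 0.16, 95% interval -0.45 to 0.32; adjusted p = 0.792 by edgeR), and its sign changed when libraries were scaled by size alone (0.02). Eif2ak4, the gene for GCN2 (chromosome 2, 118388618 to 118475234, plus strand), had 20.9, 28.2 and 26.1 CPM in 3A 1, 2 and 3, and 24.3, 12.1 and 11.2 CPM in Control 1, 2 and 3. Control 1 sat among the 3A libraries and the other 2 Control libraries below all of them. With 6 libraries the log2 fold change was 0.66 (SE 0.32; adjusted p = 0.184 by edgeR); without Control 1 it was 1.11 (edgeR adjusted p = 0.00205).

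Ddit3 encodes CHOP, a C/EBP family factor induced by ATF4 that promotes death under lasting stress (chromosome 10, 127290774 to 127296288, plus strand). It had 71.5, 53.8 and 62.0 CPM in 3A 1, 2 and 3, and 121, 194 and 208 CPM in Control 1, 2 and 3. All 3 libraries of 3A lay below all 3 of Control, with Control 1 between the others and 3A. Its mean was 62.4 ± 8.85 CPM in 3A and 174 ± 46.5 CPM in Control (SD, n = 3 each), a log2 fold change of -1.48 (SE 0.24; adjusted p = 0.00814 by edgeR). The adjusted p (edgeR) was 0.0528 without 3A 2 and 0.0531 without 3A 3, and between 0.000243 and 0.0356 without any of the other 4 libraries. The last 68 exon bases of Ddit3, 3.97% of its exon length, are shared with Mars on the opposite strand, and Mars did not follow it (log2 fold change 0.09, edgeR adjusted p = 0.732). The annotation holds another protein-coding entry named Ddit3 on the same strand, which shares 105 exon bases (6.13%) and has no counts here. How reads of that part were counted was not given.

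Cebpb encodes C/EBPβ, a partner of ATF4 on composite elements (chromosome 2, 167688915 to 167690418, plus strand). It had 91.2, 55.2 and 40.3 CPM in 3A 1, 2 and 3, and 101, 222 and 217 CPM in Control 1, 2 and 3. The groups did not overlap, but 3A 1 and Control 1 were within about 10 CPM of each other. The log2 fold change was -1.53 (SE 0.40; adjusted p = 0.0434 by edgeR). Tmem189 on the opposite strand shares 312 exon bases, 20.7% of the Cebpb exon length, and had 1007 to 1481 counts per library; reads of the shared part cannot be told apart if the counting ignored strand.

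Nupr1 encodes a small chromatin-associated protein induced by many stresses (chromosome 7, 126623249 to 126630861, minus strand). It had 70.9, 38.9 and 43.0 CPM in 3A 1, 2 and 3, and 73.3, 219 and 310.2 CPM in Control 1, 2 and 3. Control 1 was barely above 3A 1, and the spread within Control exceeded that within 3A. Its log2 fold change of -1.98 (SE 0.51; adjusted p = 0.0434 by edgeR) was the largest fall among the 36 members. For both Cebpb and Nupr1 the call with 6 libraries was lost in edgeR without 3A 2 (adjusted p = 0.167 for each), without 3A 3 (0.156 and 0.17), without Control 2 (0.134 and 0.116) or without Control 3 (0.118 and 0.115). Without 3A 1, Cebpb passed (0.0431) and Nupr1 did not (0.0698). Without Control 1 both passed (0.00237 and 0.000653). By limma-voom with 6 libraries Nupr1 did not pass (adjusted p = 0.0613).

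Atf5 and Cebpg complete the regulators. Atf5, a close relative of Atf4 that is also controlled at translation, had 101 ± 25.3 CPM in 3A and 140.3 ± 37.0 CPM in Control (SD, n = 3 each; edgeR adjusted p = 0.239). Control 1, at 98.0 CPM, was again inside the 3A range, and leaving it out gave -0.66 on the log2 scale (edgeR adjusted p = 0.0231). Cebpg, which encodes the C/EBPγ partner of ATF4, had 132 ± 8.23 CPM in 3A and 146 ± 6.14 CPM in Control, and was not called (log2 fold change -0.14, edgeR adjusted p = 0.470). Of the 7 regulators, 0 rose and 3 fell by edgeR; at an unadjusted p under 0.05 the counts were 0 and 3, DESeq2 called 0 and 3, and limma-voom 0 and 2. For comparison, over all tested genes edgeR called 14.9%, 34% had an unadjusted p under 0.05 and DESeq2 called 26%. No such share is given for limma-voom, so its counts, here and elsewhere, cannot be read against a background. The median log2 fold change of the regulators was -0.47, against -0.02 over all tested genes.

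**Figure D2:**
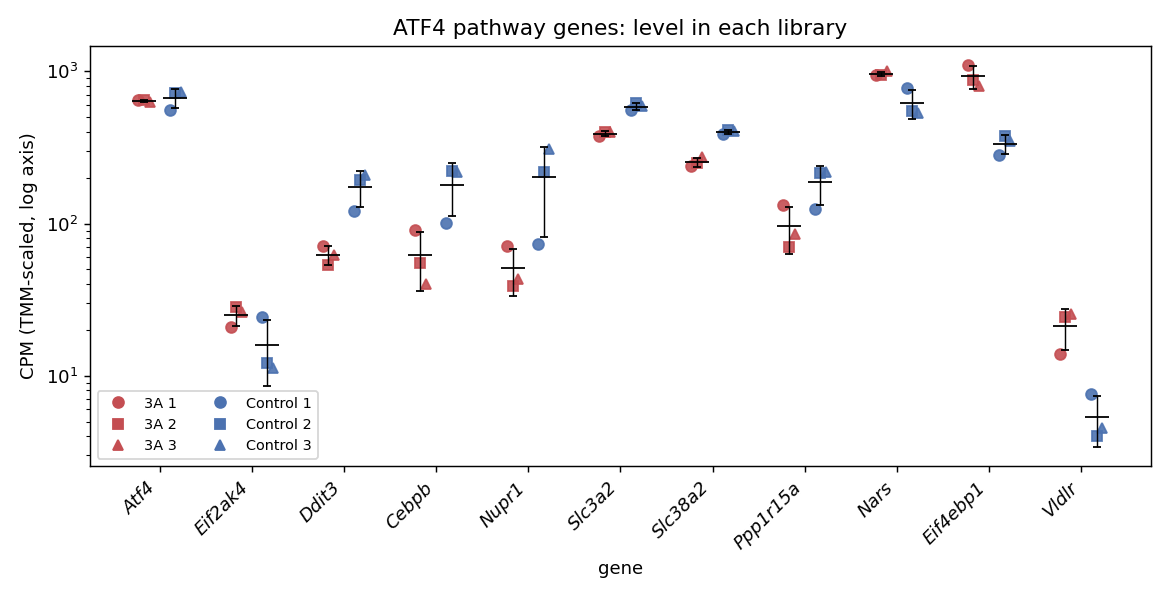
CPM in each library on a log axis for Atf4, Eif2ak4, the 7 called genes and the 2 genes nearest the threshold; red marks 3A, blue marks Control, shapes mark libraries, and bars give the mean and SD of 3 libraries. For Ddit3, Cebpb and Nupr1 the blue circle (Control 1) lies closest to the red points, whereas for Slc3a2, Slc38a2 and Eif4ebp1 the blue points stay together.

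The feedback and effector genes held both risers. Eif4ebp1 encodes the 4E-BP1 protein, which binds the cap-binding factor eIF4E and holds back translation (chromosome 8, 27260329 to 27276674, plus strand). It had 1101, 872 and 806 CPM in 3A 1, 2 and 3, and 281, 375 and 349 CPM in Control 1, 2 and 3. Every 3A library was at least 2-fold above every Control library, and Control 1 was the lowest of all. Its log2 fold change was 1.47 (SE 0.20; adjusted p = 0.00420 by edgeR), and it was the only member that passed with any single library left out, with edgeR adjusted p between 0.000886 and 0.0241.

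Vldlr encodes the very low density lipoprotein receptor, an ATF4-responsive member outside amino acid metabolism (chromosome 19, 27216484 to 27254231, plus strand). It had 13.8, 24.3 and 25.4 CPM in 3A 1, 2 and 3, and 7.64, 4.00 and 4.50 CPM in Control 1, 2 and 3. The groups did not overlap, and 3A 1 and Control 1 were the nearest libraries. Its log2 fold change was 1.97 (SE 0.34; adjusted p = 0.0105 by edgeR), with adjusted p of 0.0519 without 3A 2 and 0.0564 without 3A 3.

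Other feedback genes were not called. Ppp1r15a encodes GADD34, which directs the phosphatase that reverses eIF2 phosphorylation, and had 132, 70.2 and 85.3 CPM in 3A 1, 2 and 3, and 124, 216 and 219 CPM in Control 1, 2 and 3. Here 3A 1 lay above Control 1, so the groups overlapped (log2 fold change -0.96, SE 0.31; adjusted p = 0.0800 by edgeR). Without Control 1 it was -1.17 (edgeR adjusted p = 0.00584), and DESeq2 called it with 6 libraries (adjusted p = 0.0245). Trib3, a pseudokinase gene that dampens ATF4 output, had 348 ± 46.2 CPM in 3A and 349 ± 6.47 CPM in Control (SD, n = 3 each; 95% interval of the log2 fold change -0.36 to 0.35).

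Chac1, for a glutathione-degrading enzyme, had 112 ± 19.1 CPM in 3A and 96.4 ± 31.2 CPM in Control, with Control 1 the highest library (131 CPM; edgeR adjusted p = 0.556). Sesn2, for a leucine sensor upstream of mTORC1, had 88.6 ± 11.5 CPM in 3A and 118 ± 14.0 CPM in Control; its groups did not overlap, yet it did not pass (log2 fold change -0.41, edgeR adjusted p = 0.127). Of the 6 feedback and effector genes, 2 rose and 0 fell by edgeR. At an unadjusted p under 0.05 the counts were 2 and 2, DESeq2 called 2 and 1, and limma-voom 2 and 0. The shares over all tested genes were 14.9% by edgeR, 34% unadjusted and 26% by DESeq2, and the median log2 fold change of these 6 was 0.11, against -0.02.

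None of the 8 enzyme genes passed the test. The serine synthesis genes Phgdh, Psat1 and Psph had 917 ± 41.4, 743 ± 177 and 253 ± 36.7 CPM in 3A and 837 ± 62.3, 478 ± 239.6 and 244 ± 84.6 CPM in Control (SD, n = 3 each). Psat1 varied most within groups, with 540.3, 863 and 827 CPM in 3A 1, 2 and 3, and 754, 359.6 and 321 CPM in Control 1, 2 and 3. Control 1 lay among the 3A libraries, and without it the log2 fold change of Psat1 was 1.14 (edgeR adjusted p = 0.00409), against 0.64 (edgeR adjusted p = 0.248) with 6 libraries. Phgdh counts are uncertain because the annotation holds processed copies of it, the most counted of which, Gm7901, is 98.7% identical over 1597 bases. Psph shares 452 exon bases on the opposite strand with the abundant gene Cct6a, which had 12434 to 36822 counts per library.

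Shmt2 and Mthfd2, of the mitochondrial folate pathway, had log2 fold changes of 0.29 and 0.05. Aldh18a1 and Pycr1, which act early and last in proline synthesis, had 0.34 and 0.23, and Asns, asparagine synthetase, had 0.11 (95% interval -0.24 to 0.46). With 6 libraries the log2 fold changes of the 8 enzymes were all positive, from 0.05 to 0.64, with a median of 0.18. Over all tested genes 6689 of 13704 were positive, with a median of -0.02. Psph and Mthfd2 turned negative without Control 1 (-0.19 and -0.006) and without 3A 1 (-0.06 and -0.07). By edgeR 0 were higher and 0 lower, at an unadjusted p under 0.05 also 0 and 0, and DESeq2 and limma-voom each called 0 and 0. The shares over all tested genes were 14.9% by edgeR, 34% unadjusted and 26% by DESeq2. Without Control 1, Psat1, Shmt2 (0.43) and Aldh18a1 (0.50) passed, in a fit that called 52% of all tested genes (26.2% higher).

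Among the transporters, Slc3a2 and Slc38a2 fell. Slc3a2 encodes the CD98 heavy chain, which carries several amino acid exchangers to the cell surface and is known to bind β1 integrin tails (chromosome 19, 8706882 to 8723369, minus strand). It had 374, 398 and 399 CPM in 3A 1, 2 and 3, and 554, 619.8 and 589 CPM in Control 1, 2 and 3. The values within each group were close together and did not overlap, and Control 1 sat with its own group. The log2 fold change was -0.59 (SE 0.14; adjusted p = 0.0315 by edgeR). It did not pass when any library other than Control 1 was left out (edgeR adjusted p from 0.0831 to 0.164), although its log2 fold change stayed between -0.55 and -0.62. Its adjusted p in edgeR was 0.052 when libraries were scaled by size alone and 0.0833 with no low-count filter.

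Slc38a2 encodes SNAT2, a sodium-coupled importer of small neutral amino acids that amino acid shortage induces (chromosome 15, 96687392 to 96699730, minus strand). It had 240.3, 249 and 274 CPM in 3A 1, 2 and 3, and 387, 409.8 and 408 CPM in Control 1, 2 and 3. As for Slc3a2, the groups were tight and apart. The log2 fold change was -0.66 (SE 0.14; adjusted p = 0.0209 by edgeR), -0.68 without Control 1 (edgeR adjusted p = 0.00368), and -0.61 to -0.71 with edgeR adjusted p from 0.0649 to 0.140 without any other library. With no low-count filter its edgeR adjusted p was 0.053.

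Slc7a5 encodes LAT1, the light chain that pairs with CD98 to import large neutral amino acids. Unlike Slc3a2 it was not called: it had 126, 209 and 177 CPM in 3A 1, 2 and 3, and 253, 138 and 135 CPM in Control 1, 2 and 3. The highest library was Control 1 and the lowest 3A 1 (log2 fold change -0.04, 95% interval -0.75 to 0.67, with a change of sign under scaling by library size). That interval also holds the value of Slc3a2 (-0.59), so these genes are not shown to differ in their change. Per kilobase of annotated exon, Slc3a2 averaged 111 RPKM in 3A and 166 RPKM in Control, and Slc7a5 46.1 RPKM in 3A and 47.3 RPKM in Control. Slc1a4, a neutral amino acid exchanger gene, was also highest in Control 1 (106 CPM, against 52.9 to 79.9 CPM in the other 5 libraries).

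Slc7a1, the cationic amino acid transporter CAT1, had 213 ± 62.3 CPM in 3A and 156 ± 64.6 CPM in Control, and Slc1a5, the glutamine transporter ASCT2, 128 ± 20.05 CPM in 3A and 93.6 ± 17.5 CPM in Control (SD, n = 3 each). Neither passed with 6 libraries (edgeR adjusted p = 0.375 and 0.154). Without Control 1 both did, with log2 fold changes of 0.85 and 0.62 (edgeR adjusted p = 0.0216 and 0.0142). Of the 6 transporters, 0 rose and 2 fell by edgeR; at an unadjusted p under 0.05 the counts were 0 and 2, and DESeq2 and limma-voom each called 0 and 2. Of all tested genes, 14.9% were called by edgeR, 34% passed unadjusted and 26% were called by DESeq2. The median log2 fold change of the 6 was -0.05, against -0.02 over all tested genes.

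The 9 aminoacyl-tRNA synthetase genes, whose products charge tRNA with its amino acid, split by sign without passing the test. Nars, for asparagine, had 949.6, 942 and 1002 CPM in 3A 1, 2 and 3, and 774, 552 and 532 CPM in Control 1, 2 and 3. The groups did not overlap (log2 fold change 0.64, SE 0.19; adjusted p = 0.0633 by edgeR), and without Control 1 the value was 0.84 (edgeR adjusted p = 0.00157). Aars, Wars and Eprs, for alanine, tryptophan and for glutamate with proline, had log2 fold changes of -0.49, -0.44 and -0.58 (edgeR adjusted p = 0.0922, 0.0957 and 0.137).

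Aars had 389 ± 55.4 CPM in 3A and 546 ± 51.9 CPM in Control (SD, n = 3 each), with no overlap, and Wars 226 ± 24.6 CPM in 3A and 307 ± 30.1 CPM in Control, also with none. The exons of Aars share 1326 bases, 14.3% of its exon length, with Exosc6 on the same strand, which was at 0 in every library. How reads that fall on both genes were counted was not given. The value of Exosc6 therefore does not show that it was silent, and reads of Aars may be missing there. Eprs had 445, 382 and 393 CPM in 3A 1, 2 and 3, and 414, 641 and 772 CPM in Control 1, 2 and 3, so Control 1 lay inside the 3A range. Gars, Mars, Tars, Sars and Cars had log2 fold changes of 0.19, 0.09, 0.05, -0.25 and -0.35. By edgeR 0 of the 9 were higher and 0 lower. At an unadjusted p under 0.05 the counts were 1 and 3, DESeq2 called 1 (Nars) and 2 (Aars and Wars), and limma-voom 0 and 0. Without Control 1, Nars passed as higher and Aars (-0.55), Cars (-0.51) and Eprs (-0.79) as lower, in the fit that called 26.2% of all tested genes higher and 25.8% lower. With 6 libraries, 34% of all tested genes passed unadjusted, and DESeq2 called 26%.

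**Figure D3:**
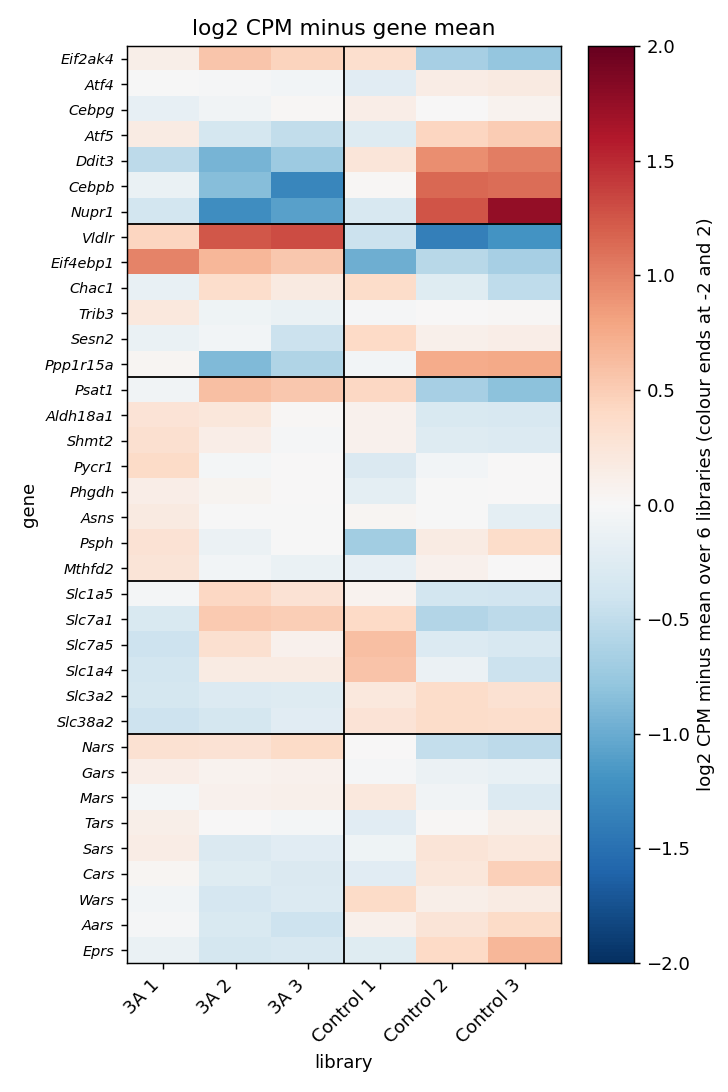
Log2 CPM minus the mean over 6 libraries for each of the 36 genes (rows, by role) in each library (columns, 3A left and Control right). The Control 1 column is pale where Control 2 and Control 3 are strongly coloured for Nupr1 and Cebpb, and it takes the colour of 3A 2 and 3A 3 for Eif2ak4, Psat1 and Slc7a1.

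Levels between genes were compared per length, as RPKM (CPM divided by kilobases of annotated exon). Eif4ebp1 was the highest member in 3A at 422 ± 70.5 RPKM, followed by Phgdh at 369 ± 16.6 RPKM, and these differed by less than the spread of Eif4ebp1 (SD, n = 3 each). In Control the order was led by Phgdh at 337 ± 25.1 RPKM and Atf4 at 285 ± 42.4 RPKM, and Eif4ebp1 had 153 ± 22.2 RPKM. Atf4 and Gars, next in 3A, had 272 ± 4.68 and 266 ± 5.73 RPKM and were not separated by their spread. At the low end stood Vldlr with 2.10 ± 0.632 RPKM in 3A and 0.534 ± 0.196 RPKM in Control, and Eif2ak4 with 3.36 ± 0.500 RPKM in 3A and 2.13 ± 0.976 RPKM in Control. The fallen regulators were of middle level: Ddit3 had 36.4 ± 5.17 RPKM in 3A and 102 ± 27.1 RPKM in Control, and Nupr1 20.3 ± 6.93 RPKM in 3A and 79.9 ± 47.5 RPKM in Control.

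The number of members called moved most with Control 1. Without it, 10 of 36 members were higher and 10 lower, among 14300 tested genes of which 52% were called, 26.2% higher and 25.8% lower; the members' share was near this background. All 7 genes called with 6 libraries were among the 20. The further genes that edgeR called without Control 1 as higher were Eif2ak4, Chac1 (log2 fold change 0.52), Psat1, Shmt2, Aldh18a1, Slc7a1, Slc1a5 and Nars, and as lower Atf5, Ppp1r15a, Aars, Cars and Eprs. Of these, DESeq2 also called Nars, Ppp1r15a and Aars with 6 libraries. Leaving out Control 2 or Control 3 gave 2 higher and 1 lower member each, leaving out 3A 1 gave 2 and 2, and leaving out 3A 2 or 3A 3 gave 1 and 0 each. The share of all tested genes called was then 5.99%, 6.98%, 9.18%, 4.72% and 4.77%, in the order Control 2, Control 3, 3A 1, 3A 2, 3A 3. Whether the mitochondrial share, which also separates Control 1 from Control 2 and Control 3, has a part in this was not tested.

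**Figure D4:**
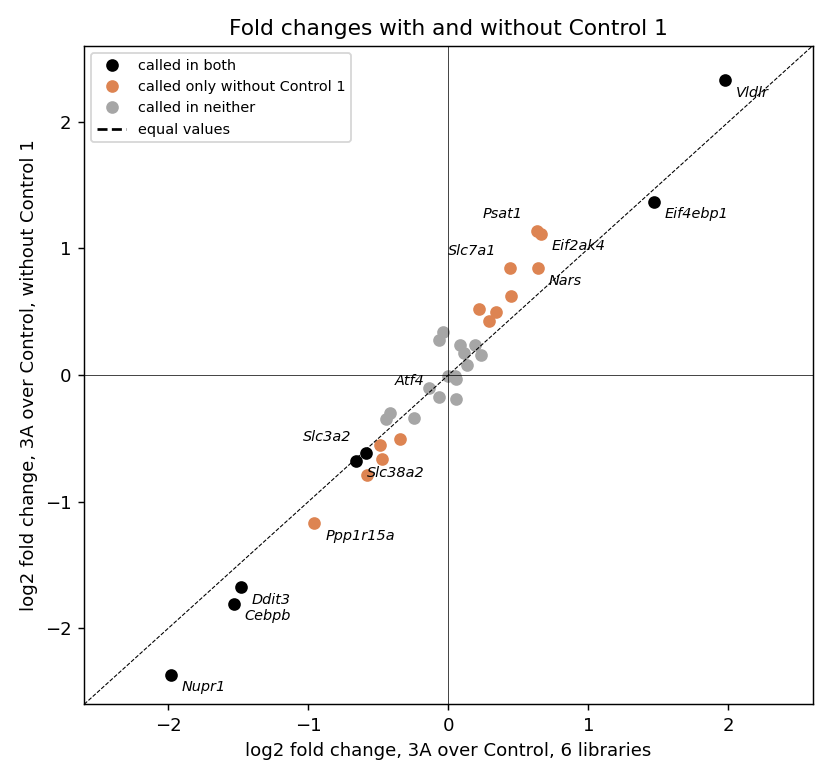
Log2 fold change of 3A over Control without Control 1 (vertical axis) against that with all 6 libraries (horizontal axis) for the 36 genes; the dashed line marks equal values. Most genes away from 0 lie further out without Control 1, such as Nupr1 at -2.37 against -1.98 and Psat1 at 1.14 against 0.64, while Slc3a2, Slc38a2 and Eif4ebp1 stay near the line.

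Of the 7 other lists of genes from the same pathway, 112 genes were tested, of which 8 rose and 5 fell by edgeR (11.6% called, against 14.9% of all tested genes). Among 14 genes for the other eIF2 kinases, eIF2 and its exchange factor, 0 rose and 1 fell by edgeR, 1 and 2 at an unadjusted p under 0.05, and 1 and 1 by DESeq2. The gene that fell was Impact, whose product restrains GCN2 by competing for its activator GCN1. It had 18.5, 20.4 and 23.4 CPM in 3A 1, 2 and 3, and 51.0, 40.8 and 42.8 CPM in Control 1, 2 and 3, with Control 1 the highest (log2 fold change -1.11, SE 0.17; adjusted p = 0.00621 by edgeR). Among 20 tested genes linked to ATF4 outside the members, 1 rose and 0 fell by edgeR, 5 and 1 at an unadjusted p under 0.05 and also by DESeq2. For comparison with both lists, the shares over all tested genes were 34% unadjusted and 26% by DESeq2. The edgeR riser, Stc2, which encodes the secreted glycoprotein stanniocalcin-2, had 166, 151 and 127 counts in 3A 1, 2 and 3, and 0, 5 and 1 counts in Control 1, 2 and 3 (edgeR adjusted p = 0.00251). Stc2 passed the low-count filter only through 3A, the group where it is high. Its entry to the test thus depended on that group, and its call only describes these counts.

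Of 14 cytosolic tRNA synthetase genes and synthetase complex scaffolds outside the members, 0 were called by edgeR, DESeq2 or limma-voom (1 higher and 0 lower at an unadjusted p under 0.05 in edgeR). Of 17 mitochondrial synthetase genes, Cars2 and Yars2 rose by 1.44 and 0.70 on the log2 scale and Tars2 fell by 0.65, where 14.9% of all tested genes were called. Of 11 tested genes for other folate and serine or glycine enzymes, 0 were called by edgeR, DESeq2 or limma-voom (1 higher and 0 lower at an unadjusted p under 0.05 in edgeR). Of all tested genes, 34% had an unadjusted p under 0.05 in edgeR, and DESeq2 called 26%.

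Of 15 other amino acid transporter genes, 3 were higher and 2 lower, where 7.52% of all tested genes were higher and 7.39% lower. Slc1a1, a glutamate transporter gene, had 0.917, 1.52 and 1.36 CPM in 3A 1, 2 and 3, and 6.50, 6.49 and 6.88 CPM in Control 1, 2 and 3, so Control 1 kept with its group (log2 fold change -2.38, SE 0.25; adjusted p = 0.00172 by edgeR). Its paralogue Slc1a3 rose by 2.37 on the log2 scale, to 2.43 CPM in 3A against 0.459 CPM in Control. Slc6a14, a broad neutral and cationic importer gene, had 3.60 ± 1.28 CPM in 3A and 0.393 ± 0.164 CPM in Control, and Slc38a1, for the SNAT1 relative of SNAT2, 31.0 ± 2.41 CPM in 3A and 18.4 ± 1.23 CPM in Control (SD, n = 3 each). Slc38a1 thus rose (log2 fold change 0.75, edgeR adjusted p = 0.0160) while Slc38a2 fell. The aromatic amino acid transporter gene Slc16a10 fell by 1.17. Slc1a3 and Slc6a14 were near the low-count floor in Control, so their entry to the test relied on 3A, where they are high.

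Of 21 tested genes for amino acid sensing by mTORC1, 2 rose and 1 fell, against 7.52% higher and 7.39% lower over all tested genes. Rraga, a Rag GTPase gene, had 192 ± 11.2 CPM in 3A and 117 ± 8.93 CPM in Control (SD, n = 3 each; log2 fold change 0.71, edgeR adjusted p = 0.0167). Lamtor3, for a subunit of the Ragulator scaffold, rose by 0.51, and Rragd, another Rag GTPase gene expressed at 0.203 CPM in 3A and 0.805 CPM in Control, fell by 1.97. Rragd was near the low-count floor. Its 3A level alone would not have passed the filter, so its entry to the test relied on Control, where it is higher. Across the 7 lists, leaving out Control 1 gave 37 genes higher and 17 lower, whereas leaving out a different library gave 4 to 5 higher and 1 to 3 lower. The share of all tested genes called moved likewise, to 52% without Control 1 and 4.72% to 9.18% without another library.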

How the data were processed

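The authors deposited whole-number read counts for each mouse Ensembl gene ID in 6 libraries, without normalization. Tools named, per the submitters' processing notes, were featureCounts, limma, edgeR and Trim Galore; the notes list hg38, GRCh38 and mm10 as builds and give no version or role. The aligner, annotation release, strand setting and handling of multiply matching reads were not given in the sources used here. Symbols, positions (1-based) and exon lengths were read from the M21 release of GENCODE (assembly GRCm38, equivalent to mm10), which matched 49056 of 49315 IDs; the other 259 IDs held at most 0.0123% of a library.

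The tests used edgeR 4.0.16 under R 4.3.3 with group as the only term (filterByExpr, TMM, glmQLFit, glmQLFTest), with Benjamini-Hochberg adjustment over 13704 genes and a threshold of 0.05. CPM uses TMM-scaled sizes of the filtered libraries; log2 CPM has a prior count of 1. Standard errors come from the fold change and F statistic, and the 95% intervals are per gene and not adjusted. Alternatives were other scalings and filters (none, or 1 CPM in 3 libraries), DESeq2 1.42.0, limma-voom (limma 3.58.1), a replicate block and leaving out each library. In simulated counts with 200 changed genes, the edgeR test called 25% of the 2-fold and 84% of the 4-fold changes. Of its 116 calls there, 7 were false. The simulation changed a smaller share of genes than was called here. It drew noise for each gene alone, with no library standing apart as Control 1 does. Its rates of missed and false calls therefore do not carry over to these libraries. A gene that was not called is not shown to be unchanged. Replicate pairs differed beyond sampling noise (chi-square per degree of freedom at least 15.7). Near-identical copies were sought with blastn among GENCODE transcripts (at least 95% identity over 200 bases). The members and lists were chosen with earlier results of these data known. All members could be named; values per library are given for called members, the 2 nearest the threshold, Atf4 and Eif2ak4, with some others chosen after their values were seen, and of other lists up to 5 called genes. The sequence of 1 promoter match is not reported here.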

Additional observations from a re-analysis of the deposited data

How the results depend on the processing

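With 6 libraries, 2 members were higher and 5 lower in 3A. The lower count was 3 with no low-count filter and 8 by DESeq2, and neither count moved by over 1.5 times with the other scalings, the 1 CPM filter or limma-voom. Leaving out 1 library gave 1 to 10 members higher and 0 to 10 lower, with the upper end without Control 1. Over all tested genes, 1031 were higher and 1013 lower; DESeq2 gave 1678 and 1887, and leaving out 1 library 346 to 3751 and 318 to 3690. The 7 other lists had 8 higher and 5 lower, 16 higher by DESeq2, and 4 to 37 and 1 to 17 with a library left out. The cause of these shifts was not tested.

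With the replicate number as a block, 0 members were higher and 0 lower, 142 and 146 of all genes, and 1 and 1 in the 7 lists; the lowest adjusted p of a member was 0.072 (Eif4ebp1). Same-numbered libraries did not deviate together (r = -0.66, -0.42 and -0.37 for numbers 1, 2 and 3). Deviations were taken from each group mean, so a single odd library in a group shapes all of these values. They cannot decide whether the numbers pair the samples.

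Signs changed only for members near 0 that were not called. The log2 fold changes of Atf4, Trib3 and Slc7a5 were 0.0155, 0.0693 and 0.00674 with library size alone, that of Trib3 was 0.0305 with no filter, and that of Slc7a5 was 0.00655 with the block. With 1 library left out the ranges were -0.17 to 0.00501 for Atf4, -0.11 to 0.0738 for Trib3, -0.19 to 0.27 for Psph, -0.0657 to 0.13 for Mthfd2, -0.20 to 0.34 for Slc7a5, -0.27 to 0.28 for Slc1a4, -0.0224 to 0.24 for Mars and -0.0282 to 0.13 for Tars.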
